A study of Homo sapiens with 10 samples.

Results

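Wnt feedback genes are targets of Wnt signalling whose products act back on the pathway, together with R-spondin receptors that set how strongly it runs. The question was whether RNF43, which was lower with the EOS vector and higher after ribavirin in the prostate cancer line DU145, moved with the other genes of this circuit. The 10 genes are RNF43, ZNRF3, AXIN2, LEF1, TCF7, NKD1, DKK1, LGR4, LGR5 and NOTUM, of 19775 genes that had a probe set annotated with a single symbol. They were chosen by name, and RNF43 leads the set because of its measured values in DU145, so those values are given as a description and without a test. Of the 10 genes, 9 had such a probe set and 7 passed the filter on low values, which kept a gene if its probe set exceeded the array median in 2 or more of the 10 arrays. The chosen probe set of NKD1 passed the median in 1 array and that of LGR5 in 0, and TCF7 was not analysed here.

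RNA was measured on Affymetrix arrays, 1 per sample, in DU145, a line that grows without androgen and was set up from a metastasis in the brain, and in LNCaP, which responds to androgen and came from a lymph node metastasis. Each line gave 1 array of ribavirin-treated EOS cells, 2 arrays of EOS cells and 2 arrays of PGK control cells, 6 groups in all. The EOS vector carries GFP and a puromycin resistance gene under OCT4 and SOX2 enhancers, and the EOS cells had been kept in puromycin for a few weeks, while the PGK vector drives the same genes from a ubiquitous promoter. Ribavirin, a guanosine analogue, was given to the cells of EOS number 2, at a dose and time not stated in the labels. EOS cells are thus drug-selected pools defined by a reporter, and the labels do not say whether arrays 1 and 2 of a group were separate cultures, so the spread between them may be technical only. The 4 arrays numbered 1 and the 6 numbered 2 differed in deposited scale, with trimmed means of 500 in the arrays numbered 1 against 96.6 to 126.5 in those numbered 2, and in the 3' to 5' signal ratio of ACTB, at 1.24 to 1.51 against 3.20 to 3.99. Every array was therefore scaled to a trimmed mean of 500, and differences between arrays of the same number are given beside those of the groups for the members described in full. Summed intensities of 5 prostate luminal markers were 45507 to 74153 in LNCaP arrays against 67.2 to 141.5 in DU145 arrays, as the line labels say. The 7 fibroblast markers summed to 3214 in DU145 EOS R and 2922 in DU145 EOS 2, against 443.1 to 775.1 in the other DU145 arrays. That sum was led by POSTN, at 2020 and 1730 in those 2 arrays, and COL3A1, at 380.8 and 500.8. PDGFRA was also higher in them, at 45.1 and 71.7. COL1A1, COL1A2, DCN and LUM overlapped with the other DU145 arrays, with COL1A2 at 22.5 and 40.5 against 40.4 to 49.2. The part of these markers in the values below was not tested, and 4 leukocyte markers summed to 72.3 to 154.8 over all arrays.

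In the Wnt pathway a secreted ligand binds a Frizzled receptor and the co-receptors LRP5 and LRP6, which stops the destruction complex from degrading beta-catenin and lets beta-catenin act with TCF/LEF factors on target genes. RNF43 and ZNRF3 are transmembrane ubiquitin ligases that remove Frizzled from the cell surface, and R-spondins bound to LGR4 or LGR5 clear these ligases and so raise the response to Wnt. AXIN2, NKD1, DKK1 and NOTUM dampen the pathway at other levels. Loss of RNF43 and fusions of R-spondin genes have been described in some advanced prostate cancers.

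Promoter sequences are shown for RNF43, about which the question was asked, and for LEF1 and DKK1, the 2 members that differed most between the lines. Each window runs from 250 bases before to 50 bases after a transcript start in RefSeq, build GRCh38.p14, written 5′ to 3′ on the strand of the gene. RNF43 lies on the minus strand at chr17:58417485-58417784, a window over the outer start of the gene. LEF1 lies on the minus strand at chr4:108166252-108166551, within the annotated span of the gene. DKK1 lies on the plus strand at chr10:52314031-52314330, over the outer start of the gene. Capitals mark the TCF/LEF core letters, which are CTTTG followed by a pair of letters that are each A or T. They were searched on both strands, and matches on 1 strand cannot overlap.
RNF43: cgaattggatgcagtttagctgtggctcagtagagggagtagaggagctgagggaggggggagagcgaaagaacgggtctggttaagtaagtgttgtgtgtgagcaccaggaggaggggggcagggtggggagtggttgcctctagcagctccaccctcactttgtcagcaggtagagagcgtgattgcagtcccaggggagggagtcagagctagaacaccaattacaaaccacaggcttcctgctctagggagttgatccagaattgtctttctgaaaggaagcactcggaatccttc
LEF1: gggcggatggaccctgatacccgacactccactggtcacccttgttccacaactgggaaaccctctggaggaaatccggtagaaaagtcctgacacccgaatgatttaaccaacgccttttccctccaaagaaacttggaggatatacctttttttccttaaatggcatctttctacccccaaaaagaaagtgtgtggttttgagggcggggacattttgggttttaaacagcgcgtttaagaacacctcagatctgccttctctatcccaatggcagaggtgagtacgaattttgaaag
DKK1: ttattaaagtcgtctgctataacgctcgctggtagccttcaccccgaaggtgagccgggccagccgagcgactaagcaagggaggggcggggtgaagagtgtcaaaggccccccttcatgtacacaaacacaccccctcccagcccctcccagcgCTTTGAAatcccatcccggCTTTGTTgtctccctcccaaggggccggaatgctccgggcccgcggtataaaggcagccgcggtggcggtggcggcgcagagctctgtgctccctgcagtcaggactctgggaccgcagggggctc
The DKK1 window held CTTTGAA at -95 and a second match, CTTTGTT, at -76 from the start, and the RNF43 and LEF1 windows held no match. RefSeq promoters were given for 5 of the 10 genes, in 7 windows, of which 2 held a match, those of DKK1 and 1 of the 2 of TCF7. For ZNRF3, AXIN2, NKD1, LGR5 and NOTUM no window was used here. Over all genes 4829 of 35116 windows of the same length, 13.8%, held at least 1 match.

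Among the DU145 arrays, whose values led to its choice, RNF43 varied most of the set, and in LNCaP it was nearly constant. In DU145 its scaled intensity was 88.2 in EOS R, 10.6 and 39.4 in EOS 1 and EOS 2, and 104.8 and 99.3 in PGK 1 and PGK 2. Both EOS arrays lay below both PGK arrays, and the ribavirin array lay between the EOS and PGK arrays. In LNCaP it was 210.4 in EOS R, 249.6 and 260.4 in EOS 1 and EOS 2, and 257.6 and 205.1 in PGK 1 and PGK 2, so that the groups overlapped. The DU145 EOS values lay below the median of their arrays, at the 19.7th and 37.9th percentiles of all probe sets, where signal and background are hard to separate. In RNA of whole cultures, less RNA per cell and fewer cells with that RNA cannot be told apart. All differences below are on the scale log2(scaled intensity + 16), which makes the changes of dim genes look smaller than they are.

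EOS minus PGK in DU145 was -1.62 ± 0.40 for RNF43 (SE, from a spread pooled over the 6 groups, with 2 arrays in each of these 2), with -2.18 between the arrays numbered 1 and -1.06 between those numbered 2. With a pseudocount of 1 the difference was -2.25, and with 64 it was -0.92. Ribavirin minus EOS was 1.44 ± 0.49 (1 array against 2), and 0.91 against EOS 2 alone, the array of the same number. It was 2.04 with a pseudocount of 1, 0.79 with 64, and 0.42 on the unscaled values, which compare 2 deposited scales. EOS minus PGK and ribavirin minus EOS in DU145 are the contrasts that led to the choice of RNF43. RNF43 ranked 25th from the lowest of 14262 tested genes in the first and 109th from the highest in the second, and 48 genes, 0.337%, were lower by 1 or more in both DU145 pairs.

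Ordered by mean log2 level, RNF43 was at 5.26 in DU145 EOS, 6.70 in DU145 EOS with ribavirin, 6.88 in DU145 PGK, 7.82 in LNCaP EOS with ribavirin, 7.94 in LNCaP PGK and 8.08 in LNCaP EOS. The pooled SD within the groups of 2 arrays was 0.39. The neighbours DU145 ribavirin and DU145 PGK differed by 0.18, and the 3 LNCaP groups by 0.12 and 0.14, all less than that SD. Over the 5 DU145 arrays the SD of RNF43 was 0.94 (median tested gene 0.24). RNF43 was chosen by its values in these arrays, so a large SD there was built in and nothing is read from it. Over the 5 LNCaP arrays the SD of RNF43 was 0.16, larger than that of 14.7% of the tested genes (median gene 0.32).

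**Figure D1:**
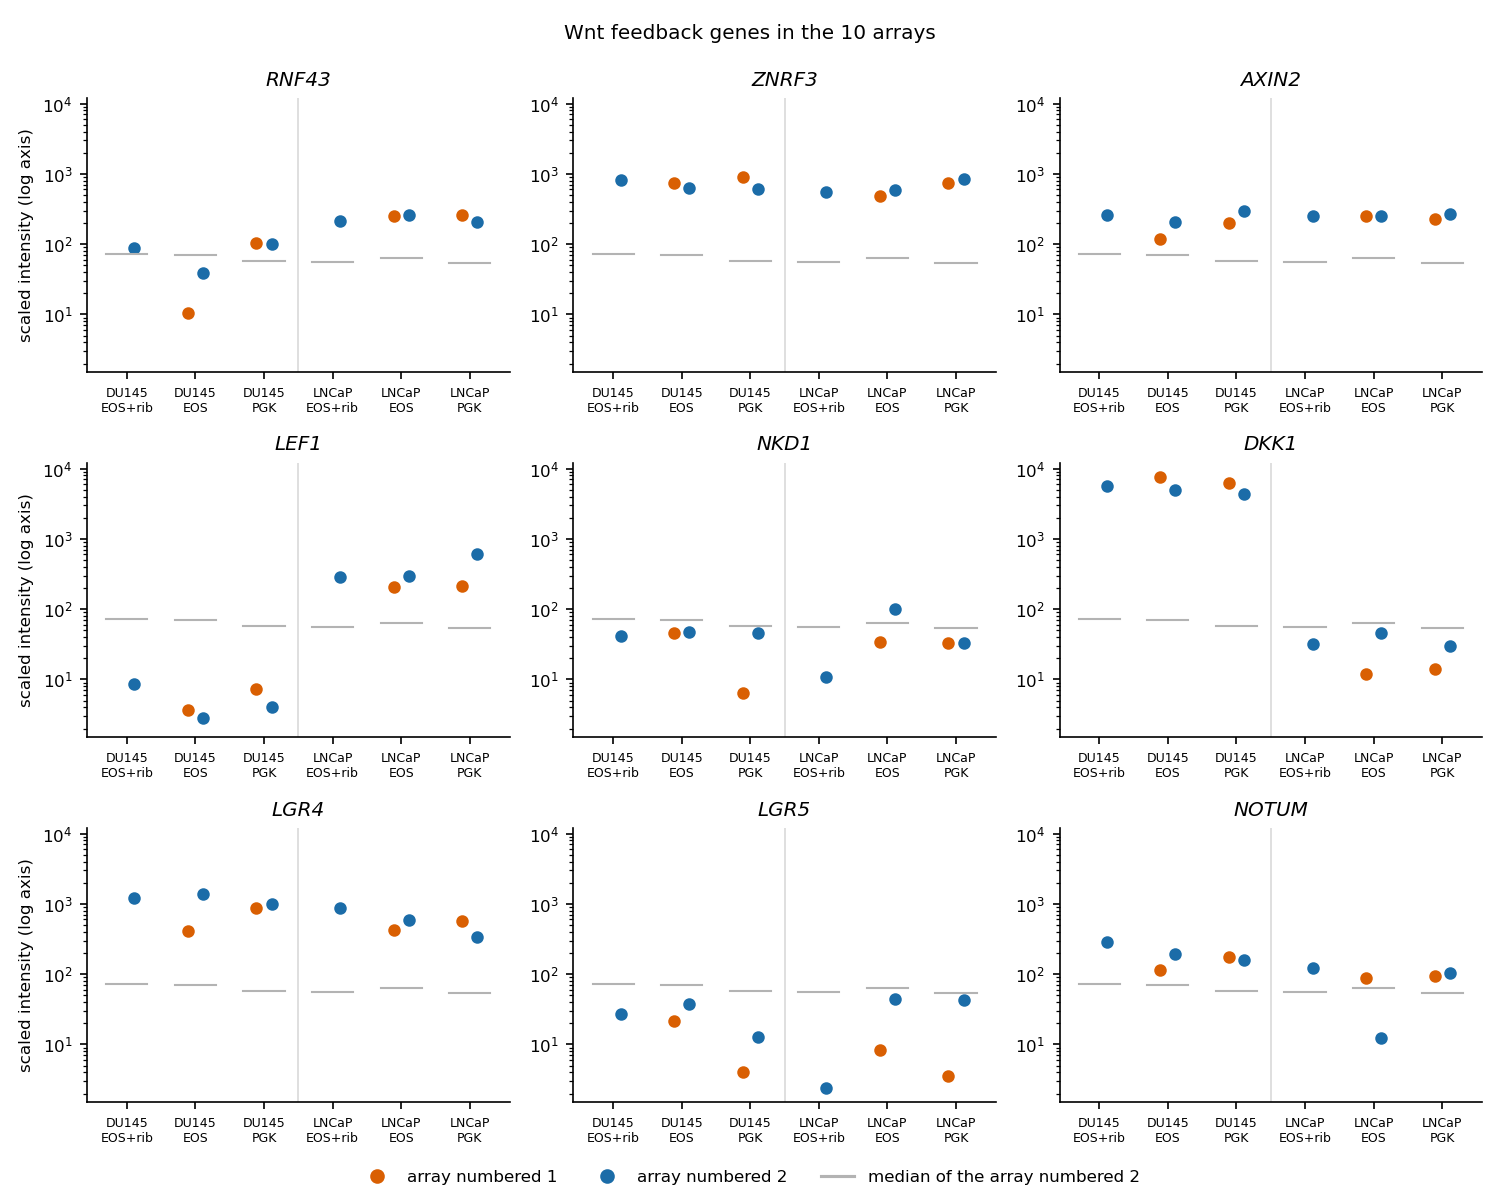
Scaled intensity (log axis) of the 9 genes with a probe set in each of the 10 arrays, by group. Points are single arrays coloured by array number, and grey lines give the median of the array numbered 2 of each group. RNF43 is lowest in the 2 DU145 EOS arrays, at 10.6 and 39.4, LEF1 is at 8.7 or below in every DU145 array and DKK1 at 45.2 or below in every LNCaP array.

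ZNRF3, the paralogue of RNF43, was bright in both lines. Its scaled intensity in DU145 was 806.0 in EOS R, 748.1 and 638.1 in EOS, and 892.8 and 601.0 in PGK, with the EOS arrays inside the range of the PGK arrays. EOS minus PGK in DU145 was -0.08 ± 0.26, with -0.25 and 0.08 in the pairs numbered 1 and 2, and ribavirin minus EOS was 0.22 ± 0.32, or 0.33 against EOS 2 alone. In LNCaP it was 543.2 in EOS R, 489.7 and 598.0 in EOS, and 747.9 and 855.9 in PGK, so that both EOS arrays lay below both PGK arrays. The LNCaP difference was -0.55 ± 0.26, with -0.60 and -0.51 in the 2 pairs, and did not pass the threshold (limma adjusted p = 0.999).

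LGR4, a receptor for R-spondins, had a scaled intensity of 1215.6 in EOS R, 414.0 and 1400.0 in EOS 1 and EOS 2, and 880.2 and 993.8 in PGK among DU145 arrays. The 2 EOS arrays enclosed both PGK arrays, and the pairs gave -1.06 and 0.49. In LNCaP it was 871.8 in EOS R, 424.4 and 596.2 in EOS, and 568.0 and 341.4 in PGK, again with overlap. Ribavirin minus EOS was 0.66 ± 0.62 in DU145 and 0.77 ± 0.62 in LNCaP (limma adjusted p = 0.999 in LNCaP), but against EOS 2 alone it was -0.20 in DU145 and 0.54 in LNCaP. LGR5, the related R-spondin receptor known as a marker of intestinal stem cells, ranged from 2.4 to 43.6 over the 10 arrays and was below the median of each, so it was not tested.

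AXIN2, a scaffold of the destruction complex and a widely used readout of beta-catenin signalling, came closest to RNF43 among the tested members. In DU145 its scaled intensity was 261.1 in EOS R, 116.6 and 209.7 in EOS 1 and EOS 2, and 198.4 and 299.6 in PGK 1 and PGK 2. EOS 2 lay above PGK 1, so the groups overlapped, although within each number EOS was below PGK, at -0.69 and -0.48. EOS minus PGK was -0.59 ± 0.34 and ribavirin minus EOS 0.68 ± 0.42, or 0.30 against EOS 2 alone. The size and sign of these values depended on the processing: EOS minus PGK was 0.12 with the mean of all AXIN2 probe sets and -0.20 without DU145 EOS 1, and ribavirin minus EOS was -0.35 on the unscaled values, which compare 2 deposited scales. In LNCaP AXIN2 was 248.1 in EOS R, 250.8 and 254.4 in EOS, and 228.8 and 265.9 in PGK, an SD of 0.07 that exceeded that of 1.87% of the tested genes. The values rest on 1 of 4 AXIN2 probe sets: the other 3 never exceeded 85.5, and their EOS minus PGK differences in DU145 were -0.62, 0.29 and 1.39.

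NKD1, which binds Dishevelled and inhibits Wnt signalling, ranged from 6.5 to 47.1 in DU145 arrays and from 11 to 100.3 in LNCaP arrays. These are values of the brightest of its 3 probe sets, which lay above the median of the array only in LNCaP EOS 2, so the gene was not tested. Another of the 3 lay above the median in DU145 PGK 2 alone, at 90.9.

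LEF1, a transcription factor that carries beta-catenin to DNA, was near the floor in DU145, at 8.7 in EOS R, 3.7 and 2.8 in EOS and 7.4 and 4.0 in PGK. Both EOS arrays lay below both PGK arrays, but all 5 values were within the lowest 16% of their arrays and no direction is drawn from them. In LNCaP it was 288.5 in EOS R, 208.2 and 300.8 in EOS, and 213.7 and 602.6 in PGK. The LNCaP EOS minus PGK difference of -0.50 ± 0.52 (limma adjusted p = 0.999) lay in the arrays numbered 2, at -0.97, against -0.04 in those numbered 1.

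DKK1, a secreted inhibitor that binds LRP5 and LRP6, was among the brightest probe sets in DU145, at 5681.6 in EOS R, 7513.8 and 5000.8 in EOS and 6185.5 and 4353.7 in PGK, above 95.8% or more of the probe sets of each array. EOS minus PGK in DU145 was 0.24 ± 0.42, with 0.28 and 0.20 in the pairs. In LNCaP it was 32.1 in EOS R, 12 and 45.2 in EOS and 14.1 and 30.0 in PGK, below the median of every LNCaP array. NOTUM is a secreted enzyme that inactivates Wnt ligands by removing their lipid. Among DU145 arrays NOTUM was 283.5 in EOS R, 113.4 and 191.5 in EOS, and 174.7 and 159.8 in PGK. Its pairs there gave -0.56 and 0.24. Ribavirin minus EOS for NOTUM in DU145 was 0.87 ± 0.70, or 0.53 against EOS 2 alone. In LNCaP NOTUM was 121.7 in EOS R, 88.1 and 12.2 in EOS 1 and EOS 2, and 94.5 and 104.0 in PGK. The LNCaP difference for EOS of -1.09 ± 0.57 and that for ribavirin of 1.34 ± 0.70 (limma adjusted p = 0.999 for both) rest on the low EOS 2 array: EOS minus PGK was -0.09 in the pair numbered 1 and -2.09 in the pair numbered 2, and ribavirin minus EOS 2 alone was 2.29.

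The other 6 tested members were set beside RNF43 within array number. In the DU145 pair numbered 1, where RNF43 was at -2.18, 5 of the 6 were below 0 with a median of -0.40, while over all tested genes 53.4% were below 0 with a median of -0.03. In the pair numbered 2, where RNF43 was at -1.06, 2 of the 6 were below 0 with a median of 0.14 (all tested genes 49.7% and 0.00202). For DU145 EOS R minus EOS 2, where RNF43 was at 0.91, 5 of the 6 were above 0 with a median of 0.31 (all tested genes 52.7% and 0.0157). AXIN2 and the near-floor LEF1 had the sign of RNF43 in all 3 DU145 differences, and ZNRF3 and NOTUM in 2 of the 3. The share of all tested genes with these signs is not given here, and nothing is read from these counts. The second and the last of these differences share the EOS 2 array, which pushes them toward opposite signs in any gene. The 6 genes are not replicates of one another.

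**Figure D2:**
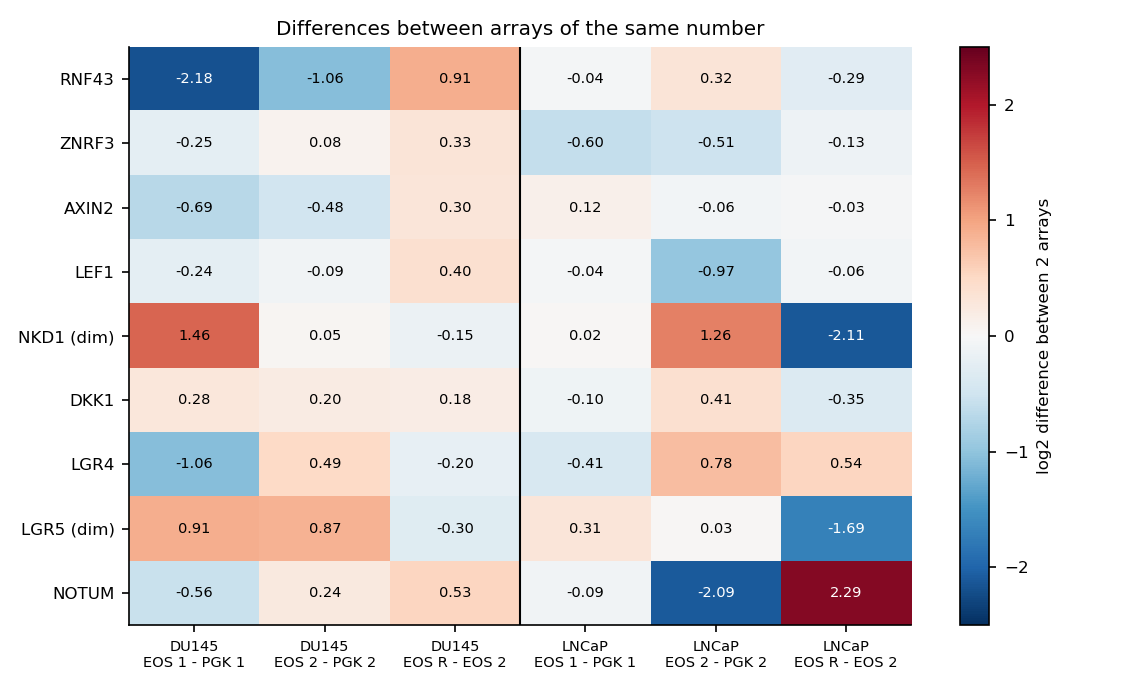
Log2 difference between 2 arrays of the same number (EOS minus PGK, or ribavirin-treated EOS minus EOS 2) for the 9 genes, in DU145 to the left and LNCaP to the right of the line. Blue is lower and red is higher in the first-named array, and dim marks genes that were not tested. RNF43 is at -2.18, -1.06 and 0.91 in DU145 and AXIN2 at -0.69, -0.48 and 0.30.

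Over all genes limma called 0 of 14262 (0%) at an adjusted p under 0.05 in each of the EOS and ribavirin comparisons of either line, and 0 for the difference of the EOS effect between the lines. At an unadjusted p under 0.05 there were 223 genes for EOS in DU145, 594 for EOS in LNCaP, 461 for their difference, 249 for ribavirin in DU145 and 289 for ribavirin in LNCaP. RNF43 in LNCaP was at 0.14 ± 0.40 for EOS and -0.26 ± 0.49 for ribavirin (limma adjusted p = 0.999 for both). The EOS effect on RNF43, LNCaP minus DU145, was 1.76 ± 0.57, given without a test since it uses the DU145 contrast that led to the choice of RNF43. On AXIN2 it was 0.62 ± 0.48 and did not pass (limma adjusted p = 0.9999). RNF43 and LEF1 were the tested members with both DU145 EOS arrays below both PGK arrays, a pattern that 16% of all tested genes had. RNF43 was chosen for being lower there and LEF1 lay near the floor, so nothing is read from this count. No tested member had both DU145 EOS arrays above both PGK arrays, against 13.2% of genes. In LNCaP, ZNRF3 and NOTUM had both EOS arrays below both PGK arrays (10.6% of tested genes), and no tested member had both above (18%). Of the 2 dim genes that were not tested, NKD1 had both EOS arrays above both PGK arrays in DU145, at 46.2 and 47.1 in EOS against 6.5 and 45.1 in PGK, and in LNCaP, at 33.8 and 100.3 in EOS against 33.0 and 32.7 in PGK. LGR5 had both above in DU145, at 21.5 and 37.0 in EOS against 4.0 and 12.9 in PGK.

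By the root mean square difference of log2 values over the 10 arrays, each gene centred on its mean in each line, the 5 genes nearest RNF43 were KLHL3 at 0.248, DERL3 at 0.257, TMEM25 at 0.273, DLG4 at 0.279 and EPCAM at 0.308. A gene with no variation would lie at 0.600. KLHL3 is an adaptor of a ubiquitin ligase, DERL3 acts in the degradation of misfolded proteins of the endoplasmic reticulum, DLG4 is a scaffold protein of synapses and EPCAM is an epithelial adhesion molecule. All 5 were lowest in DU145 EOS 1 among the DU145 arrays: KLHL3, for example, had a scaled intensity of 115.2 in EOS R, 17.5 and 73.4 in EOS, and 97.1 and 97.2 in PGK. EPCAM was 358.3 in EOS R, 172.2 and 277.7 in EOS, and 513.2 and 381.6 in PGK. AXIN2 ranked 58th of 14261 genes at 0.390, LGR4 1795th, ZNRF3 6205th, LEF1 9399th, DKK1 11956th and NOTUM 12060th. Over the 5 DU145 arrays the nearest genes were PSAPL1, BCRP3, DERL3, LMO7 and INSYN1, and over the 6 arrays numbered 2, without EOS 1, they were IL31RA, SV2C, TTC34, IPO5P1 and ZNF778. AXIN2 ranked 273rd in both, at 0.519 in DU145 and 0.228 in the arrays numbered 2. A gene with no variation would lie there at 0.837 and 0.346. None of the first 5 genes was among the 5 nearest in the arrays numbered 2.

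**Figure D3:**
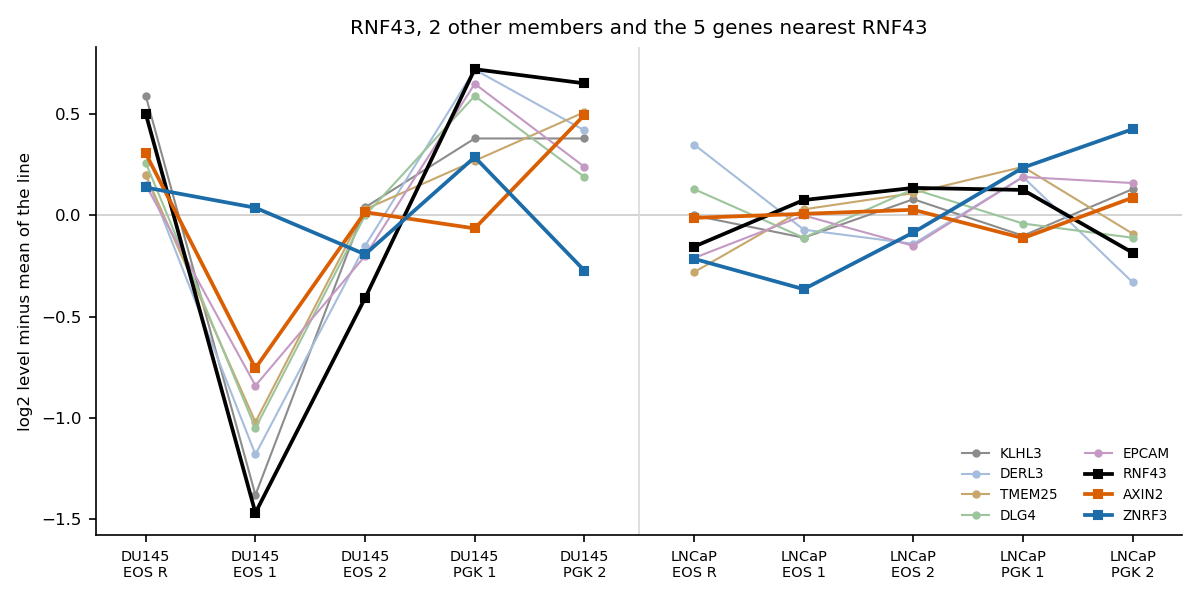
Log2 level minus the mean of the line for RNF43, AXIN2, ZNRF3 and the 5 genes nearest RNF43, in the 5 DU145 and the 5 LNCaP arrays, with lines joining arrays of a line only to guide the eye. KLHL3 is at -1.38 and EPCAM at -0.84 in DU145 EOS 1, the array in which RNF43 is also lowest, and ZNRF3 does not dip there.

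DKK1 and LEF1 differed more between the 2 lines than in any comparison within a line. Over the mean of the 3 states, LNCaP minus DU145, limma called 6925 of 14262 genes, 23.6% as higher and 25% as lower in LNCaP. LEF1 and RNF43 were among the higher and DKK1 and NOTUM among the lower, and nothing is read from that count of 4 of the 7 tested members. LEF1 passed the filter only through its LNCaP arrays and DKK1 only through its DU145 arrays, so they could hardly be tested without differing, and the DU145 values that chose RNF43 enter its difference. For these 3 genes the line difference is therefore given as a description, with no test.

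DKK1 differed by -7.08 ± 0.28 (5 arrays per line), a mean log2 level of 5.39 in LNCaP against 12.47 in DU145. LEF1 differed by 3.85 ± 0.35, at 8.29 in LNCaP against 4.44 in DU145. Because the lower line lies near the floor, the size depends on the pseudocount: with 1 and 64 DKK1 was at -7.77 and -5.98, and LEF1 at 5.53 and 2.38. In the arrays numbered 2 alone DKK1 was at -6.60 and LEF1 at 4.22. The other 2 LEF1 probe sets, at most 66.3 in any array, differed by 0.66 and 0.29.

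RNF43 was at 1.67 ± 0.27, with a mean log2 level of 7.95 in LNCaP against 6.28 in DU145. Its scaled intensity was 205.1 to 260.4 in LNCaP and 10.6 to 104.8 in DU145. Between PGK arrays alone the difference was 1.06 ± 0.40, and in the arrays numbered 2 alone it was 1.46. NOTUM was lower in LNCaP, at -1.13 ± 0.38 (limma adjusted p = 0.0379), with 12.2 to 121.7 in LNCaP and 113.4 to 283.5 in DU145, which overlap. It was at -1.52 in the arrays numbered 2 alone. That call was lost in 12 of 17 alternatives, among them the PGK arrays alone (-0.67, adjusted p = 0.414) and the fits without DU145 EOS 2, DU145 PGK 1, DU145 PGK 2, LNCaP PGK 1 or LNCaP PGK 2 (adjusted p from 0.0551 to 0.0933).

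LGR4 was at -0.71 ± 0.34 (limma adjusted p = 0.118), which passed without DU145 EOS 1, at -0.99 (adjusted p = 0.00942), and was at -1.06 in the arrays numbered 2 alone. ZNRF3 was at -0.26 ± 0.17 (adjusted p = 0.253) and AXIN2 at 0.19 ± 0.23 (adjusted p = 0.517), so AXIN2 differed between the lines by less than its error.

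**Figure D4:**
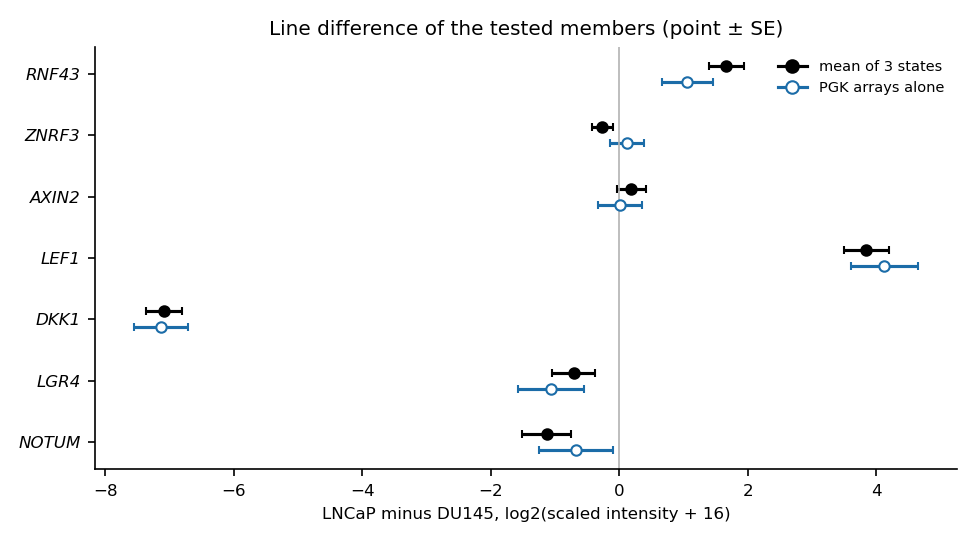
LNCaP minus DU145 for the 7 tested genes on the log2(scaled intensity + 16) scale, with bars of 1 SE. Filled points are the mean of the 3 states and open points the PGK arrays alone. DKK1 is at -7.08 and LEF1 at 3.85, while AXIN2, at 0.19, lies within its SE of 0.

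The rest of the pathway was read from 7 lists of 108 genes, of which 103 were on the array and 78 were tested. Between the lines 22 were called as higher and 25 as lower in LNCaP, beside 23.6% and 25% of all tested genes, with a median of -0.21 against -0.04 for all tested genes. Of the 47 called, 9 lay below the array median in every array of 1 line and so passed the filter only through the other, beside 1048 of all 6925 genes called. They were ASCL2, FZD9, TCF4 and WNT10A through LNCaP, and CD44, DKK3, RSPO3, TCF7L1 and TRABD2A through DU145. The values of these 9 are a description. They remain in the counts given here, from which nothing is read. Among receptors 4 of 13 were higher and 6 lower. FZD9 was at 2.45 and FZD5 at 1.01, and the co-receptors LRP5 and LRP6 were at -0.97 and -0.80. FZD2 was at -2.85 ± 0.76, with LNCaP values spread from 11.9 to 475.8. Among ligands 2 of 9 were higher and 1 lower, with WNT7B at 2.38 and WNT2B at -2.03, and of 2 R-spondins RSPO3 was lower, at -4.12.

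Of 16 transducers and destruction complex members 3 were higher, among them GSK3B at 0.86, and 5 lower, among them the scaffold APC at -1.20. CTNNB1, which encodes beta-catenin, was at 0.09 ± 0.14 and did not pass. Of 12 nuclear factors 2 were higher and 5 lower, with the co-repressor TLE4 at -5.14 ± 0.22 and the TCF factors TCF7L2 at -1.82 ± 0.12 and TCF7L1 at -2.59, while LEF1 of the same family was higher. Of 7 secreted and membrane inhibitors 1 was higher, KREMEN2 at 1.99, and 3 lower, beside 23.6% and 25% of all tested genes. Lower in LNCaP were DKK3 at -5.52 ± 0.22, SFRP1 at -2.83 and TRABD2A at -2.53. DKK3 and TRABD2A, like DKK1, passed the filter only through DU145, so their values are a description.

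Of 19 other known targets 10 were higher and 4 lower, beside 23.6% and 25% of all tested genes, with a median of 0.65. TNFRSF19 was at 5.42 ± 0.22, SOX4 at 3.56, ASCL2 at 3.07 and BAMBI, a decoy receptor of TGF-beta signalling, at 2.40. CD44, at -6.74 ± 0.19, and NKD2, the paralogue of NKD1, at -1.45, were lower. Of the genes named here as lower in LNCaP, some had a lowest LNCaP value of 13.5 or less. These were FZD2, RSPO3, TCF7L1, SFRP1, DKK3, TRABD2A and CD44, and their sizes depend on the pseudocount as that of DKK1 does. FZD9, WNT7B, KREMEN2 and ASCL2, higher in LNCaP, had a lowest DU145 value of 13 or less, with the same limit.

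**Figure D5:**
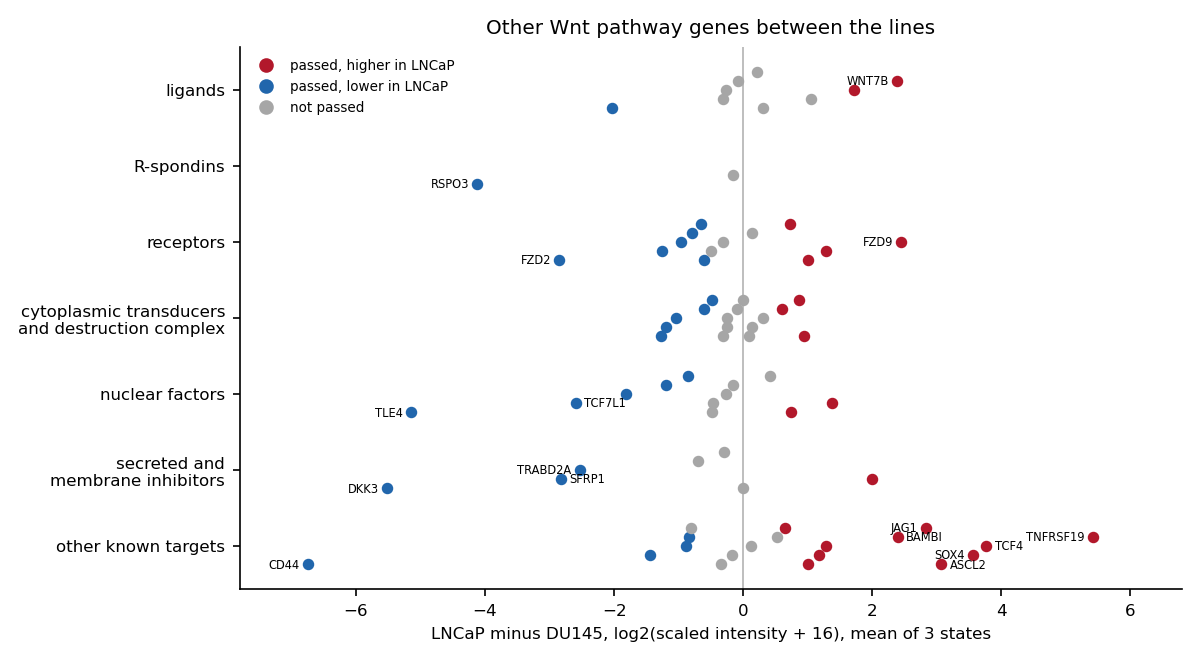
LNCaP minus DU145 (mean of 3 states, log2(scaled intensity + 16)) for the 78 tested genes of 7 Wnt pathway lists, 1 point per gene. Red and blue points passed the threshold as higher or lower in LNCaP and grey points did not, and genes beyond 2.3 in size are named. Among other known targets 10 of 19 are higher, beside 23.6% of all tested genes. CD44, at -6.74, passed the filter only through DU145.

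Within a line none of the 78 genes passed for EOS or ribavirin. Their median for EOS minus PGK was -0.02 in DU145 (all tested genes -0.02) and 0.15 in LNCaP (0.05), and for ribavirin minus EOS 0.06 in DU145 (0.05) and 0.12 in LNCaP (-0.01). The genes of smallest p per comparison follow. Some lie near the floor in the line compared, and no direction is drawn from these. In LNCaP CD44 was at most 21.4, DKK3 at most 30.6 and SFRP1 from 13.5 to 127.6. WNT7B in DU145 was 4.0 to 90.9, and RSPO1 was at most 71.2 in any array. The 5 of smallest p for EOS in DU145 were SOX9 at -0.80 ± 0.44, WNT7B at 1.23 ± 0.69, SOX4 at -0.64 ± 0.36, FZD1 at -0.52 ± 0.38 and MYC at 0.21 ± 0.16 (limma adjusted p = 1 for each). In LNCaP they were SFRP1 at 1.24 ± 0.48, TLE2 at 0.73 ± 0.29, CD44 at -0.70 ± 0.28, the tankyrase TNKS, which marks AXIN proteins for degradation, at 0.58 ± 0.24, and VEGFA at 0.70 ± 0.29 (limma adjusted p = 0.999 for each). For the difference between these effects, LNCaP minus DU145, they were SFRP1 at 1.69, VEGFA at 0.91, SOX4 at 1.09, CD44 at -0.78 and the receptor FZD7 at 0.89 (limma adjusted p = 1 for each). For ribavirin minus EOS in DU145 they were WNT7B at -2.05 ± 0.85, CSNK1E at -0.73, APC2 at 0.86, WNT6 at 0.71 and RSPO1 at -1.28 (limma adjusted p = 1 for each). For ribavirin minus EOS in LNCaP they were DKK3 at 1.14 ± 0.40, CSNK1D at -0.86, SOX9 at 1.27, RSPO1 at 1.65 and TNFRSF19 at 0.85 (limma adjusted p = 0.999 for each).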

How the data were processed

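RNA of 10 samples was measured on 1 Affymetrix array each. The authors deposited linear intensities per probe set, made with MAS5 and affy per the submitters' processing notes. Their versions and settings are not given in the sources used here, and detection calls were not used. Of 54675 probe sets 62 controls were left out, 41091 had 1 gene symbol, 1801 several and 11721 none. Each array was scaled to a 2% trimmed mean of 500 and values were taken as log2(intensity + 16). The probe set of highest mean was taken per gene, and genes above the array median in at least 2 arrays were tested, 14262 in all. Differences were fitted with limma 3.58.1 in R 4.3.3 as means of the 6 groups, with the variance trended on intensity and p-values adjusted by Benjamini and Hochberg, at a threshold of 0.05. The fit was tested on simulated data. Each ± is an SE from this shared spread, and a lone ribavirin array was taken to vary as other groups do.

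The genes, lists and tests were chosen with earlier results of these data known. All 10 genes are named, with the 5 genes nearest RNF43 and, per comparison, the 5 pathway genes of smallest p. Pathway genes in the comparison of the lines beyond these were named after their values were seen. Alternatives changed the pseudocount, scaling, filter, probe set rule, trend, replicate block and arrays used. The number of arrays limits the precision.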

Additional observations from a re-analysis of the deposited data

How the results depend on the processing

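With each array left out in turn, the count for EOS in LNCaP ranged from 0 to 4: without LNCaP EOS 1 it was 4 (HSD17B11, ITPRID2, MXRA7 and RTN2) and without LNCaP PGK 1 it was 3 (BCHE, MAF and MET, named after their values were seen, none of them among the Wnt genes). The count between the lines was 443 on the unscaled values, where arrays of a group keep 2 deposited scales, and 7949 with a replicate block. The numbers pair 2 arrays per group only, and deviations of same-numbered arrays correlated across genes with r = 0.121 in DU145 and 0.486 in LNCaP. The replicate block called 0 genes for EOS and ribavirin, and among the 10 genes it ended only the call of NOTUM between the lines (-0.93, adjusted p = 0.0534). The comparison of the lines has no value without either ribavirin array.

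Of 60 values from other probe sets of these genes 24 had the opposite sign, 5 of them from the 2 probe sets above the array median in at least 2 arrays. Among the other alternatives, arrays of 1 number alone set aside, 51 values changed sign, 25 of them with 1 array left out, and the cause was not tested. In DU145 the unscaled values gave -0.88 for ZNRF3, -0.35 for AXIN2, -0.03 for LEF1, -0.44 for LGR4 and -0.19 for NOTUM for ribavirin, and the mean of all probe sets gave 0.12 for AXIN2 for EOS. For ribavirin in LNCaP the unscaled values, which compare 2 deposited scales, gave -1.02 for ZNRF3, -0.78 for LEF1, -0.22 for DKK1, -0.30 for LGR4 and -0.09 for NOTUM. The replicate block gave -0.11 for ZNRF3, -0.29 for LEF1 and -0.22 for DKK1, and the mean of all probe sets 0.08 for AXIN2, -0.03 for LEF1 and -0.02 for LGR4. Quantile normalization gave AXIN2 -0.05 for EOS and 0.05 for ribavirin in LNCaP, and a pseudocount of 1 gave LEF1 0.09 for the difference of the EOS effects. PGK arrays alone, chosen for this gene after seeing the data, gave ZNRF3 0.12 between the lines.
With 1 array left out, values for EOS in LNCaP ranged from -0.01 to 0.29 for RNF43, -0.07 to 0.13 for AXIN2, -1.21 to 0.21 for LEF1, -0.41 to 0.72 for DKK1 and -0.17 to 0.54 for LGR4. For ribavirin in LNCaP they ranged from -0.13 to 0.15 for ZNRF3, -0.06 to 0.44 for LEF1 and -0.35 to 0.78 for DKK1. For the difference of the EOS effects they ranged from -1.05 to 0.38 for LEF1, -0.65 to 0.48 for DKK1, -0.39 to 1.33 for LGR4 and -1.87 to 0.01 for NOTUM.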
